A study of Mus musculus with 12 samples.

Results

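Secondary granules, also called specific granules, are filled while a neutrophil precursor matures in the bone marrow, later than the primary granules and before the gelatinase-rich tertiary granules. A granule protein is sorted mainly by when its gene is active, so the mRNA of secondary granule genes is abundant in precursors at the myelocyte stage and low in circulating neutrophils. The genes measured here encode 8 proteins of this compartment. *Ltf* encodes the iron-binding protein lactoferrin and *Lcn2* a lipocalin that captures bacterial siderophores. *Camp* encodes the antimicrobial cathelicidin and *Ngp* the cathelin-related neutrophilic granule protein. *Cd177* encodes a membrane glycoprotein that neutrophils carry on their surface and in these granules, and *Itgb2l* a protein related to the beta 2 integrin chain. *Fcnb* encodes ficolin-B, a lectin that recognises sugars on microbes, and *Chi3l1* a chitinase-like protein that binds chitin without cleaving it. The genes were taken from the symbol column of the table of counts, where 7 stood under these symbols and *Chi3l1* under its synonym *Chil1*. They are 8 of 54532 genes listed, and all 8 were among the 14894 genes with enough reads to be tested.

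The expression of these genes was measured by RNA-seq of bulk mRNA in 12 libraries. The cells were wild-type C57BL/6 mouse marrow cells kept in culture with GM-CSF and IL-6, which promote the growth of myeloid cells. In 4 libraries the cells had received vehicle (0.1% DMSO), in 4 libraries 10 µM indole-3-propionic acid (IPA), a metabolite that gut bacteria make from tryptophan, and in 4 libraries 50 µM IPA. Harvest was on day 5 in each case. The authors describe the lower dose as physiological and the higher dose as above that range, and they describe somewhat lower viability of such marrow cultures at the higher dose only. The tables used here hold no viability measurement of these libraries. The comparisons ask how IPA changes gene expression in myeloid cells that form from bone marrow. The sample labels do not say whether the libraries of a group came from separate mice or cultures, so p-values measure the spread between these libraries, which may be technical. The libraries held 20451312 to 28038612 reads assigned to genes. Expression is given as CPM (reads of a gene per megaread of its library, with edgeR's TMM scaling over the 12 libraries), and group values are mean ± SD with n = 4. Fold changes, standard errors and p-values come from edgeR's quasi-likelihood test on the 8 libraries of the groups compared, with Benjamini-Hochberg adjustment over all 14894 genes, and a gene passed at an adjusted p under 0.05. All 8 markers of mature neutrophils looked for, among them *S100a8* (4629 ± 960 CPM with vehicle, SD, n = 4) and *Ly6g* (45.9 ± 13.5 CPM), had reads in every group. The cultures also expressed monocyte markers (5 genes, summed level 2141 to 2658 CPM with vehicle) and macrophage markers (8 genes, 824 to 985 CPM). By flow cytometry of such cultures, the authors report fewer Ly6C-high monocytes with IPA, while neutrophil abundance did not change. For the libraries themselves no cell counts were used here. In such mixed bulk samples, fewer cells of a type and less RNA per cell cannot be told apart.

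*Camp* (ENSMUSG00000038357, minus strand, 109847379 to 109849617), *Ngp* (ENSMUSG00000032484, plus strand, 110419747 to 110423012) and *Ltf* (ENSMUSG00000032496, plus strand, 111019271 to 111042767) lie within 1.195 Mb of chromosome 9 of GRCm38. *Lcn2* (ENSMUSG00000026822, minus strand, 32384633 to 32388252) and *Fcnb* (ENSMUSG00000026835, minus strand, 28076378 to 28084885) lie on chromosome 2. *Cd177* (ENSMUSG00000052212) is on chromosome 7 (24743983 to 24760311, minus strand), *Itgb2l* (ENSMUSG00000000157) on chromosome 16 (96422288 to 96443619, minus strand) and *Chi3l1* (ENSMUSG00000064246) on chromosome 1 (134182176 to 134190181, plus strand). All are protein-coding genes, and only *Itgb2l* overlaps another gene in the annotation, *Igsf5*, which had 0 reads in every library. C/EBP epsilon, a transcription factor of late granulocyte precursors, is known to drive secondary granule genes, so the promoters were searched for the letters of a C/EBP-like motif, TTNNGNAA, and of a PU.1-like motif, GAGGAAG. Both strands of RefSeq windows from 250 bases before to 50 bases after the start site were searched. The C/EBP-like letters stood in the windows of 7 of the 8 genes, all but *Camp*, and in 13365 of 32851 promoters of the genome (40.7%). *Ngp* held 3 such matches, *Ltf* and *Fcnb* 2 each, and the other 4 genes 1 each. The PU.1-like letters stood in 2 of the 8 windows, with 1 match in *Lcn2* and 2 in *Itgb2l*, against 4477 of 32851 promoters (13.6%). The 14 matches did not overlap each other, and a match of letters is not a bound site. The 250 bases before the RefSeq start site are shown for the 3 genes on chromosome 9, for *Fcnb*, which differed most between the groups, and for *Lcn2*, whose levels followed another order. The gene positions above come from another annotation (GENCODE), whose bounds reach past these start sites. The windows shown therefore overlap the stated gene positions in part, and that of *Lcn2* lies wholly within them. They read 5′ to 3′ on the strand of the gene, with the matches in capitals, at chr9:109849457-109849706 for *Camp*, chr9:110419558-110419807 for *Ngp*, chr9:111019042-111019291 for *Ltf*, chr2:28084879-28085128 for *Fcnb* and chr2:32387740-32387989 for *Lcn2* (RefSeq, GRCm38.p6).
Camp: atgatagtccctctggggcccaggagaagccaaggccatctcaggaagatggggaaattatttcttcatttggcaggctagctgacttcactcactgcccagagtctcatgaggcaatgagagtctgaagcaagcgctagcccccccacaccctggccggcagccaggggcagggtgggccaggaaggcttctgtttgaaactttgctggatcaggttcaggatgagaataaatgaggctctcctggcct
Ngp: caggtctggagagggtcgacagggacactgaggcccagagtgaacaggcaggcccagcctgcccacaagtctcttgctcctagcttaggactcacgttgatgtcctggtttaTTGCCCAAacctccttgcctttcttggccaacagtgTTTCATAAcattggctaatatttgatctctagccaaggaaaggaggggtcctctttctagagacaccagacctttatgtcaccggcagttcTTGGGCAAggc
Ltf: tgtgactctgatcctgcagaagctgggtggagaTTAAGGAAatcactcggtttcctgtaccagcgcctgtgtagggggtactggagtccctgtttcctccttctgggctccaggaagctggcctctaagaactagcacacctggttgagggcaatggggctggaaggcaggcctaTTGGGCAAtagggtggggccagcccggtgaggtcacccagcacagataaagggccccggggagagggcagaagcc
Fcnb: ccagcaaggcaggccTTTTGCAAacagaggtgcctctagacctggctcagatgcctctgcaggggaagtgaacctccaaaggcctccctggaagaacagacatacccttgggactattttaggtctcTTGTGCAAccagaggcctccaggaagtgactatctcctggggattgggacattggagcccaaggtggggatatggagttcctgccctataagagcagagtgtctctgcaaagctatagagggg
Lcn2: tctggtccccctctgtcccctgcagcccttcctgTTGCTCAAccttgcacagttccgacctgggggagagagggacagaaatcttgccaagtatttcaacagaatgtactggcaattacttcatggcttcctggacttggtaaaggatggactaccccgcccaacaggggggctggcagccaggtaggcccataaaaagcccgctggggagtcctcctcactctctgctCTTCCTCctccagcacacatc

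With vehicle, the 8 genes together took between 1.26% and 1.55% of all counted reads, and their levels per length spanned a wide range. Per kb of exon, *Ngp* was the highest (4508 ± 557 CPM per kb, SD, n = 4), followed by *Ltf* (1145 ± 99.8) and *Lcn2* (927 ± 106). The ranges of *Ltf* (1050 to 1251 CPM per kb) and *Lcn2* (851 to 1079 CPM per kb) overlapped, whereas the range of *Ngp* lay above both. *Camp* (529 ± 88.6 CPM per kb) and *Cd177* (417 ± 46.0 CPM per kb) came next, also with overlapping ranges. *Chi3l1* stood at 78.1 ± 5.27 CPM per kb, above *Fcnb* (51.2 ± 11.3) and *Itgb2l* (44.4 ± 2.60), and the ranges of the last pair overlapped. At 50 µM IPA this order differed. *Lcn2* (812 ± 76.1 CPM per kb) had a higher mean than *Ltf* (710 ± 77.1 CPM per kb), with overlapping ranges, and *Fcnb* (15.6 ± 2.53 CPM per kb) was the lowest of the 8, below the range of *Itgb2l* (29.2 to 36.8 CPM per kb).

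**Figure D1:**
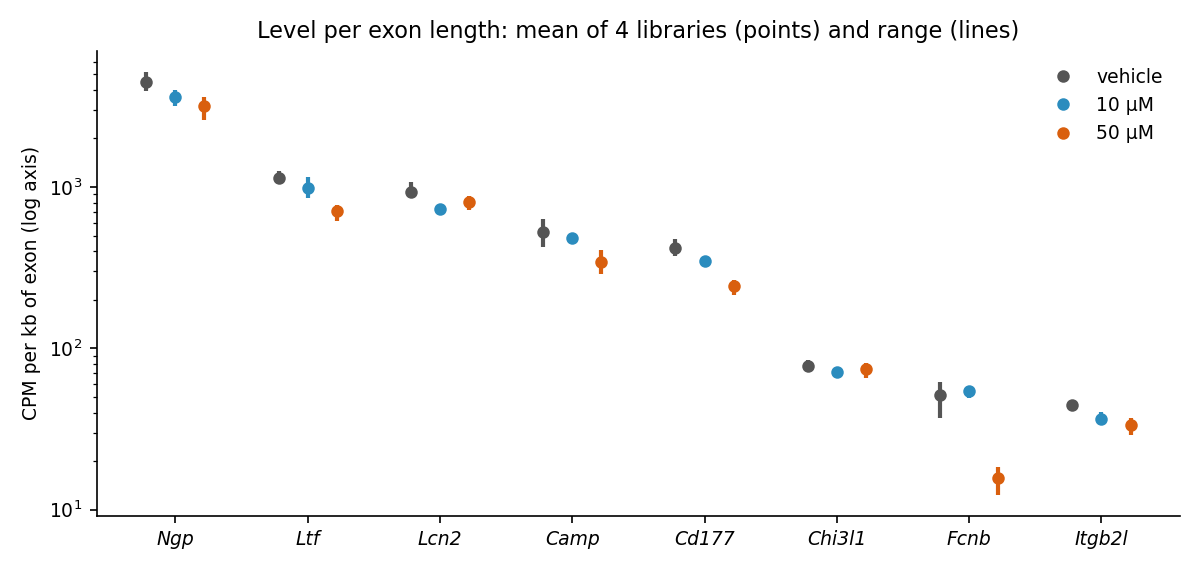
Expression of the 8 genes per kb of exon (CPM per kb, log axis) in the 3 groups, ordered by the vehicle mean. Points are means and lines the range of 4 libraries, and *Fcnb* shows the widest gap between 50 µM IPA (15.6) and vehicle (51.2).

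At 50 µM IPA, the dose described as lowering viability, 6 of the 8 genes were lower than with vehicle. An effect of the dose on these genes and one that goes with lower viability cannot be told apart. These were *Fcnb*, *Cd177*, *Ltf*, *Camp*, *Ngp* and *Itgb2l*, with levels between 30.7% (*Fcnb*) and 75.7% (*Itgb2l*) of the vehicle mean. Among all genes tested, 6.50% passed in this direction and 7.00% in the other. For the same 6 genes, all 4 libraries at 50 µM IPA lay below all 4 vehicle libraries, which was the case for 10.5% of all genes tested. *Lcn2* and *Chi3l1* did not pass, and none of the 8 was higher. The median log2 fold change of the 8 genes was -0.55, beside 0.01 for all genes tested. Each of the 6 passed in all 16 alternative fits, and without 1 library at a time the highest adjusted p was 0.0386, for *Ngp* without replicate 3 of the vehicle group.

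At 10 µM IPA, 0 of the 8 genes passed against vehicle. Among all genes tested, 0.0806% passed as lower and 0.329% as higher by edgeR's test. The estimates were below 0 for 7 of the 8 genes, between -0.12 (*Chi3l1*) and -0.34 (*Lcn2*) on the log2 scale, and *Fcnb* stood at 0.09. Their median was -0.24, beside -0.01 for all genes tested, and 5 of the 8 were lower at an unadjusted p under 0.05 (*Lcn2*, *Itgb2l*, *Cd177*, *Ngp* and *Ltf*), as were 3.36% of all genes tested. For *Lcn2*, *Cd177* and *Itgb2l*, all 4 libraries at 10 µM IPA lay below all 4 vehicle libraries, a pattern that 2.56% of all genes tested showed. DESeq2's Wald test called 1 of the 8 (*Lcn2*, adjusted p = 0.00733), a test that called 0.356% of all genes as lower, and limma-voom called 0.

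Between the doses, 4 of the 8 genes were lower at 50 µM than at 10 µM IPA (*Fcnb*, *Cd177*, *Camp* and *Ltf*), and 0 were higher. Of all genes tested, 7.85% passed as lower and 7.52% as higher in this comparison. The 4 genes were also those whose groups did not overlap, which held for 10.9% of all genes in this direction. The median of the 8 was -0.33, beside 0.01 for all genes. The comparisons with vehicle share the same 4 vehicle libraries, and those with 50 µM IPA the same 4 libraries at that dose.

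**Figure D2:**
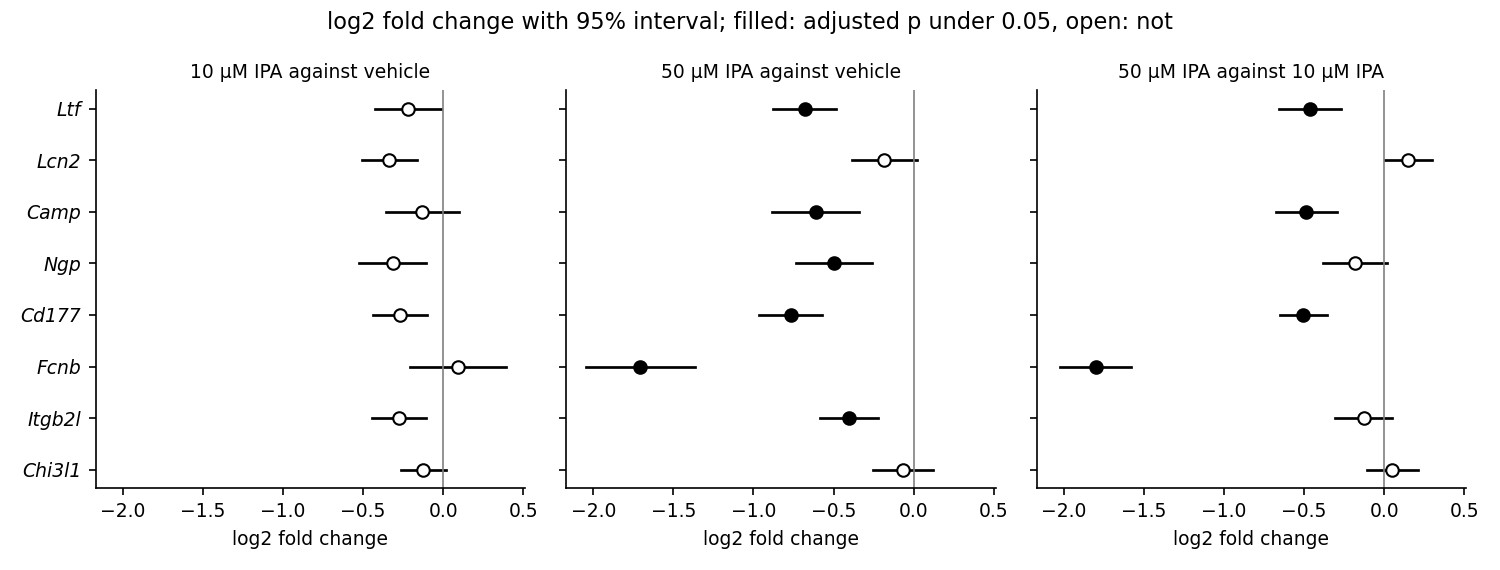
log2 fold changes of the 8 genes (points) with 95% intervals (lines) in the 3 comparisons; filled points have an adjusted p under 0.05. Filled points number 0 at 10 µM against vehicle, 6 at 50 µM against vehicle and 4 at 50 µM against 10 µM, and *Fcnb* lies farthest from 0 in both comparisons that include 50 µM.

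The iron-related pair, *Ltf* and *Lcn2*, followed different orders across the groups. *Ltf* was at 3622, 3693, 4169.8 and 4315 CPM in the vehicle libraries, at 3195, 2939.6, 3478 and 3959 CPM at 10 µM IPA and at 2640.2, 2118, 2357 and 2689 CPM at 50 µM IPA. The 50 µM libraries lay below all others, while the vehicle and 10 µM libraries overlapped. Lactoferrin mRNA stood at 3950.0 ± 344 CPM with vehicle, 3393 ± 437 CPM at 10 µM and 2451 ± 266 CPM at 50 µM (SD, n = 4). Against vehicle the log2 fold change of *Ltf* was -0.22 at 10 µM (standard error 0.09, adjusted p = 0.516) and -0.68 at 50 µM (standard error 0.09, adjusted p = 0.000335). Between the doses it was -0.47 (standard error 0.09, adjusted p = 0.00261).

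*Lcn2* was at 2252, 2232, 2415 and 2829.8 CPM with vehicle, at 1992, 1835, 1898 and 1977 CPM at 10 µM and at 2045, 1890.2, 2322 and 2264 CPM at 50 µM IPA. The 10 µM libraries were the lowest group, without overlap with vehicle, and the 50 µM libraries overlapped both other groups. At 10 µM the log2 fold change against vehicle was -0.34 (standard error 0.08, 95% interval -0.51 to -0.17), and its adjusted p of 0.114 missed the threshold. *Lcn2* is one of the genes that the study had named from these libraries for its level at 10 µM, so this estimate is not independent of that choice. At 50 µM the estimate was -0.18 (95% interval -0.39 to 0.02, adjusted p = 0.221), and between the doses it was 0.15 (95% interval 0.00 to 0.30, adjusted p = 0.161). Lipocalin mRNA made up 17.4% of the summed level of the 8 genes with vehicle, 16.8% at 10 µM and 21.8% at 50 µM, and lactoferrin mRNA 28.4%, 29.4% and 25.1%.

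In the cathelicidin-related pair, *Camp* and *Ngp* were both lower at 50 µM IPA than with vehicle. *Camp* was at 322, 383, 417 and 483 CPM with vehicle, at 389, 344, 358 and 376 CPM at 10 µM and at 269.6, 219, 309 and 246 CPM at 50 µM IPA. All 4 libraries at 50 µM lay below the other 8, and the 10 µM libraries lay within the range of the vehicle libraries. Its log2 fold change at 50 µM was -0.61 against vehicle (standard error 0.12, adjusted p = 0.00593) and -0.49 against 10 µM (standard error 0.09, adjusted p = 0.00151), and at 10 µM it was -0.13 against vehicle (standard error 0.10, adjusted p = 0.827).

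*Ngp*, the most abundant of the 8 transcripts, was at 4796, 5133, 5784 and 6322 CPM with vehicle, at 4292, 3898, 4915 and 4596 CPM at 10 µM and at 3721, 3185, 4187 and 4439.5 CPM at 50 µM IPA. The 50 µM libraries lay below all vehicle libraries, and the 10 µM libraries overlapped both groups. Against vehicle its log2 fold change was -0.32 at 10 µM (standard error 0.10, adjusted p = 0.268) and -0.50 at 50 µM (standard error 0.11, adjusted p = 0.00960). The difference between the doses, -0.18 (95% interval -0.38 to 0.01, adjusted p = 0.204), did not pass. Along chromosome 9, the 17 other genes tested between the start of *Camp* and the end of *Ltf* had a median log2 fold change of 0.06 at 50 µM against vehicle, and 2 of them passed as lower and 0 as higher.

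The genes of both surface proteins were lower at 50 µM IPA than with vehicle. *Cd177* was at 1064, 1099, 1215 and 1354 CPM with vehicle, at 979.7, 935, 1008 and 1007 CPM at 10 µM and at 709.9, 605, 699.9 and 749 CPM at 50 µM IPA. The 3 groups followed the dose without any overlap. Its log2 fold change was -0.27 at 10 µM against vehicle (standard error 0.08, adjusted p = 0.238), -0.77 at 50 µM against vehicle (standard error 0.09, adjusted p = 0.000160) and -0.50 between the doses (standard error 0.07, adjusted p = 0.000115).

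*Itgb2l* lay between 178 and 205 CPM with vehicle, between 145 and 175 CPM at 10 µM and between 126 and 159 CPM at 50 µM IPA. Both IPA groups lay below the vehicle libraries and overlapped each other. The log2 fold change against vehicle was -0.28 at 10 µM (standard error 0.08, adjusted p = 0.212) and -0.40 at 50 µM (standard error 0.08, adjusted p = 0.00671), and between the doses it was -0.13 (95% interval -0.31 to 0.05, adjusted p = 0.330). *Itgb2*, which encodes the beta 2 integrin chain to which the *Itgb2l* protein is related, rose at 50 µM against vehicle (log2 fold change 0.25, adjusted p = 0.0197), in 5 of the 8 fits with 1 library removed. Removing replicate 4 at 50 µM gave it an adjusted p of 0.0701.

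At 50 µM against vehicle, *Fcnb* and *Chi3l1*, which encode lectins, held the largest and the smallest estimate of the 8 genes. *Fcnb* was at 49.8, 62.9, 78.1 and 83.3 CPM with vehicle, at 73.9, 66.0, 78.8 and 72.7 CPM at 10 µM and at 24.7, 16.6, 20.3 and 22.01 CPM at 50 µM IPA. The highest library at 50 µM stood well below the lowest vehicle library, and the 10 µM libraries lay within the vehicle range. Ficolin-B mRNA was 3.26-fold lower at 50 µM than with vehicle (log2 fold change -1.71, standard error 0.16, adjusted p = 1.81e-05) and 3.48-fold lower than at 10 µM (log2 fold change -1.80, standard error 0.10, adjusted p = 2.41e-08). Ranked from the lowest estimate at 50 µM against vehicle, *Fcnb* was number 73 of 14894 genes. At 10 µM against vehicle the estimate was 0.09 (95% interval -0.21 to 0.39, adjusted p = 0.920), and it was -0.04 without replicate 1 of the vehicle group. *Fcna*, the gene of the other mouse ficolin, was low in every group (0.417 ± 0.235 CPM with vehicle, 0.490 ± 0.107 CPM at 50 µM).

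*Chi3l1* lay between 203 and 238 CPM with vehicle, between 191 and 208 CPM at 10 µM and between 183 and 228 CPM at 50 µM IPA, and all 3 groups overlapped. Its log2 fold change was -0.12 at 10 µM (95% interval -0.26 to 0.02, adjusted p = 0.641) and -0.07 at 50 µM (95% interval -0.26 to 0.12, adjusted p = 0.656) against vehicle, so a difference of the size seen in *Ltf*, *Camp* or *Cd177* at 50 µM lay outside its interval. Between the doses the estimate was 0.05 (95% interval -0.11 to 0.21, adjusted p = 0.706). Of the CHI3L1 receptors looked for, *Il13ra2* had 0 reads in all groups, and *Tmem219* (13.2 ± 1.72 CPM with vehicle) did not pass in any comparison.

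**Figure D3:**
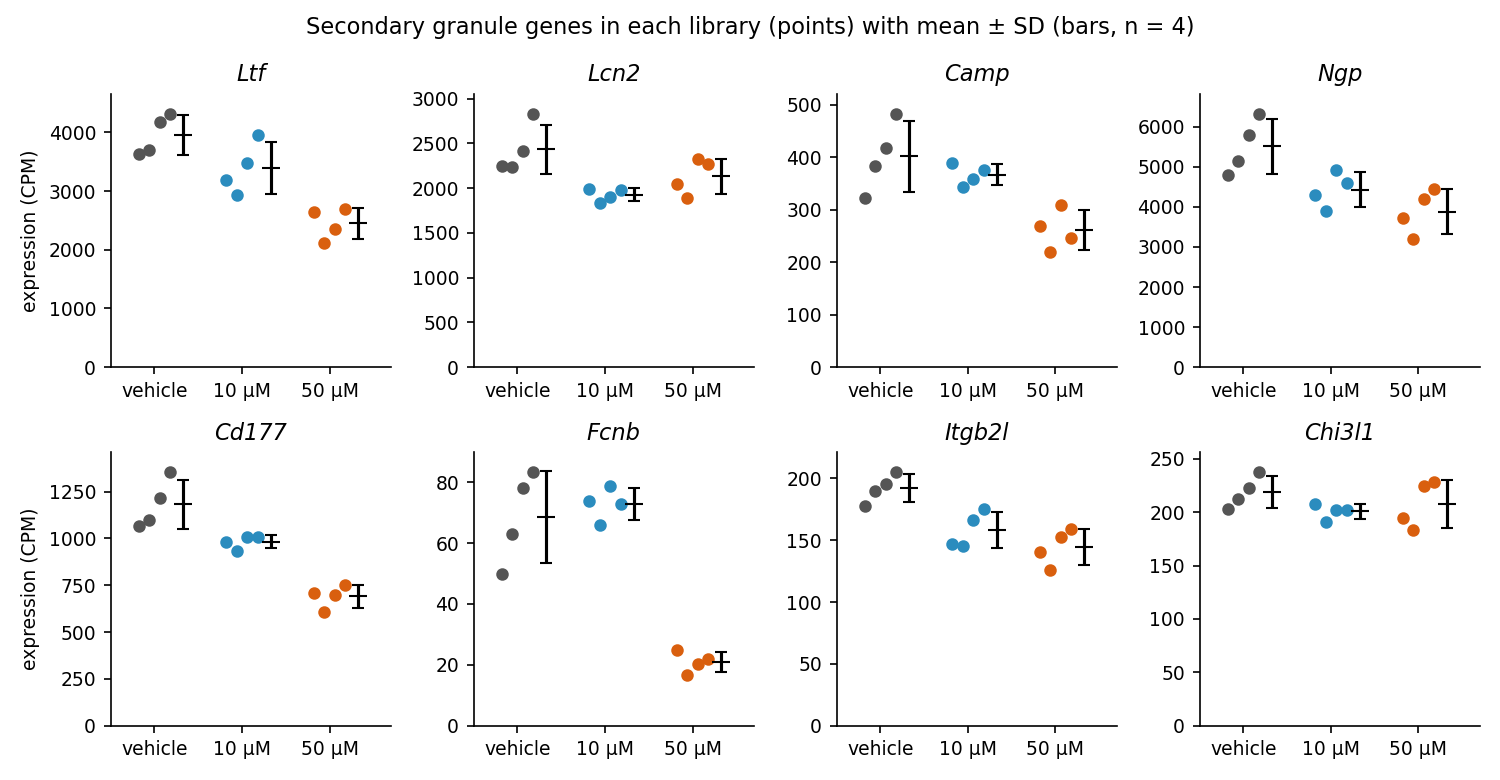
Expression (CPM, linear axes from 0) of the 8 genes in each of the 12 libraries (points) with mean ± SD (bars, n = 4). *Fcnb* lies between 16.6 and 24.7 CPM in the 50 µM libraries and between 49.8 and 83.3 CPM in the vehicle libraries, while the 3 groups overlap for *Chi3l1*.

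The genes also varied together inside the groups. Replicate 4 of the vehicle group had the highest level of all 8 genes among the vehicle libraries, and replicate 1 the lowest of 7. Replicate 2 was the lowest for all 8 genes at 10 µM and again at 50 µM. Over the 12 libraries with group means subtracted, Pearson's r of log2 CPM between pairs of the 8 genes had a median of 0.77 and ranged from 0.50 (*Ltf* and *Camp*) to 0.91 (*Ngp* and *Cd177*). With the group differences left in, it ranged from 0.12 (*Lcn2* and *Fcnb*) to 0.97 (*Ngp* and *Itgb2l*) over the 28 pairs. These values describe 12 libraries, in which all genes of a library share its cells and its preparation.

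The gene whose levels most resembled the mean of the 8 over the 12 libraries was *Rab27a* (Pearson's r = 0.98), out of 8918 genes whose mean reached 10 CPM. Rab27a is a small GTPase known for its role in the release of granules. *Stk26*, *Serpinb1a*, *Ckap4* and *Mfsd14b* followed, each with r = 0.96. After subtraction of the group means *Rab27a* was again first (r = 0.97), followed by *I830127L07Rik* (0.91), *Scp2* (0.91), *Asprv1* (0.90) and *Ap3s1* (0.90). *Rab27a* stood at 179 ± 15.3 CPM with vehicle, 154 ± 4.33 CPM at 10 µM and 132 ± 10.0 CPM at 50 µM IPA. It was lower at 50 µM than with vehicle (log2 fold change -0.43, adjusted p = 0.00451) and than at 10 µM (-0.21, adjusted p = 0.0430), the latter in 2 of 8 fits that left out 1 library. Since its resemblance was first ranked with the group differences left in, these differences are not independent of that ranking. Of 8 genes of granule packing and release, *Rab27a* alone passed against vehicle at 50 µM, and *Nbeal2* passed beside it without vehicle replicate 4. Between the doses *Unc13d* (0.34) and *Stxbp2* (0.20) passed as higher, *Unc13d* in 8 of 8 fits with 1 library removed and *Stxbp2* in 4 of 8. *Stxbp2* did not pass without replicate 1 or 2 at 10 µM (adjusted p = 0.114 without replicate 2) or replicate 2 or 4 at 50 µM.

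The mRNAs of S100A8 and S100A9, the cytosolic calprotectin subunits of neutrophils and monocytes, did not pass in any comparison by edgeR's test with all libraries. Their summed level lay between 10389 and 15850.3 CPM with vehicle, between 10408 and 11615 CPM at 10 µM and between 8110.2 and 12283 CPM at 50 µM, and replicate 4 was again the highest of the vehicle group. At 50 µM against vehicle *S100a8* and *S100a9* had log2 fold changes of -0.37 each (adjusted p = 0.114 and 0.113). Each passed as lower in 2 of the 8 alternatives that kept all libraries and in 1 of 8 fits with 1 library removed. Relative to this sum, *Fcnb* (log2 ratio difference of -1.32 at 50 µM) and *Cd177* (-0.40) still separated the 50 µM libraries from the vehicle libraries. The groups overlapped for the ratios of *Ltf* (-0.32), *Camp* (-0.24), *Ngp* (-0.13) and *Itgb2l* (-0.04). At 10 µM against vehicle the ratio of *Fcnb* to this sum was higher without overlap (0.28), and the other 7 ratios overlapped. Relative to the geometric mean of the other 7 genes, *Fcnb* was lower at 50 µM (log2 ratio difference -1.23) and higher at 10 µM (0.35) than with vehicle, both without overlap between the groups. The ratios of the other genes depended on whether *Fcnb* was part of that mean, an alternative chosen after the data were seen. *Chi3l1* (0.62, and 0.45 with *Fcnb* left out) and *Lcn2* (0.49 and 0.32) were higher and *Cd177* (-0.17 and -0.36) was lower at 50 µM, each without overlap either way. *Ltf* overlapped with *Fcnb* in the mean (-0.08) and was lower without overlap once it was left out (-0.26). *Ngp* (0.13) and *Itgb2l* (0.24) separated the groups only with *Fcnb* in the mean, and overlapped without it at -0.05 and 0.06. *Camp* overlapped both ways (0.01 and -0.17). At 10 µM *Lcn2* was lower without overlap with *Fcnb* in the mean (-0.16) and overlapped without it (-0.11), and the other 6 genes overlapped both ways. No test was run on these ratios, and the share of all genes whose ratios would separate the groups was not counted. A ratio to the other 7 genes also rises where those genes fall, so these ratios are not independent of each other.

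Genes of the other granule types did not all move like the secondary granule genes at 50 µM IPA. In these mixed cultures the reads of a listed gene need not come from neutrophils. All 7 genes of the primary granule list, not all of which encode granule proteins, were lower than with vehicle, with a median log2 fold change of -0.95. Among them were the serine protease gene *Elane* (-1.29, adjusted p = 0.000355), the myeloperoxidase gene *Mpo* (-1.02, adjusted p = 0.000622) and *Ms4a3* (-1.14, adjusted p = 3.32e-05), a gene of granulocyte-monocyte progenitors, and the smallest difference was that of *Ctsg* (-0.44, adjusted p = 0.0371), which passed in 5 of 8 fits that left out 1 library. Of 11 further genes with secondary granule products, 5 were lower (*Olfm4* -1.04, *Lrg1* -0.74, *Hp* -0.54, *Pglyrp1* -0.44 and *Cybb* -0.36), and *Ptx3*, which encodes pentraxin 3, was higher (1.22, adjusted p = 1.84e-06). *Ptx3* rose from 111 ± 9.42 CPM with vehicle to 257 ± 20.04 CPM (SD, n = 4), the opposite direction to the 6 secondary granule genes that passed. *Mmp8* (0.16, adjusted p = 0.215) also passed as higher without vehicle replicate 4. Of 6 tertiary granule genes, 3 passed as higher and 0 as lower by edgeR's test, *Mmp9* (0.33), *Itgam* (0.31) and *Adam8* (0.24), the last in 3 of 8 fits that left out 1 library. Another of the 6, *Fpr1*, just missed the threshold on the lower side (-0.25, adjusted p = 0.0520, groups without overlap). It passed as lower in 7 of the 8 alternatives that kept all libraries, limma-voom and DESeq2 among them, and in 1 of 8 fits with 1 library removed (without replicate 3 at 50 µM). At 10 µM against vehicle, 1 gene of these 3 lists passed by edgeR's test, the chitinase-like *Chil3* (-0.33, adjusted p = 0.0394), in 1 of 8 such fits, and the study had named it from these libraries. Of the 8 alternatives that kept all libraries, *Chil3* passed as lower in 6, *Adam8* as higher in 3, and *Ms4a3* and *Cybb* as lower in 1 each. *Mmp8* passed as higher in 1 of 8 fits with 1 library removed.

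**Figure D4:**
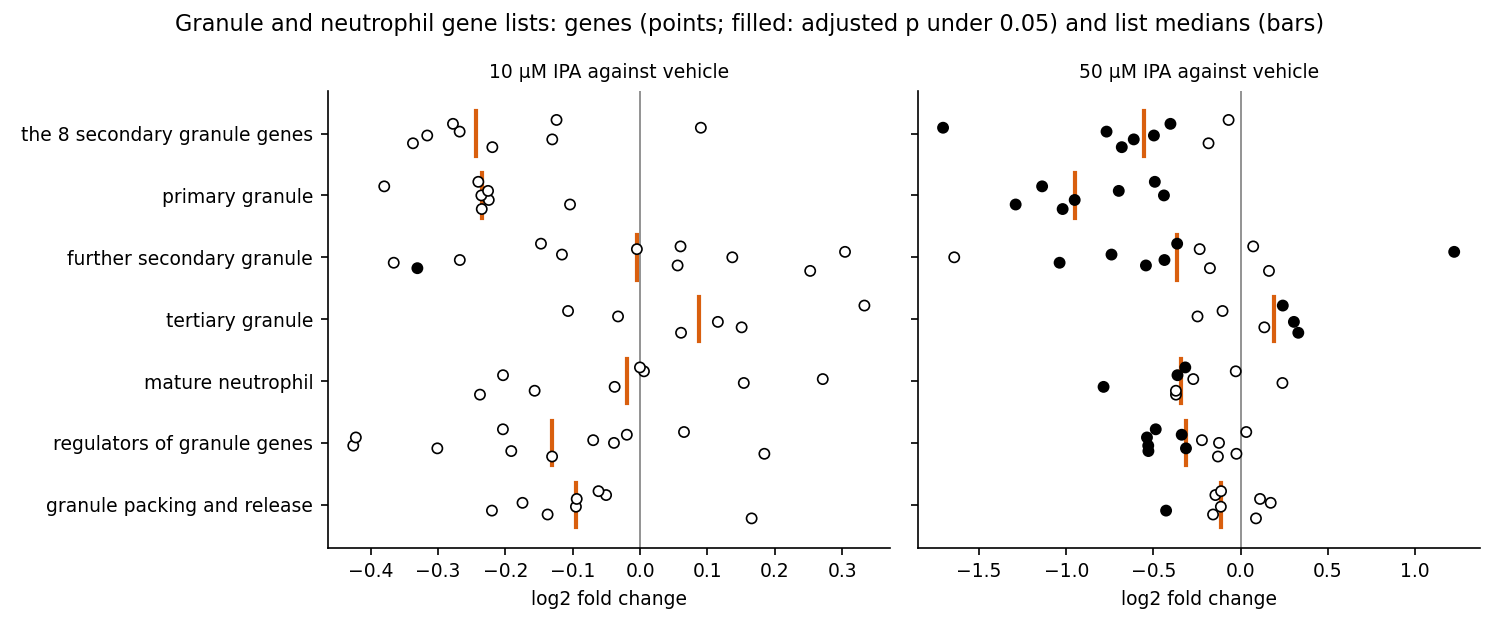
log2 fold changes of single genes (points; filled, adjusted p under 0.05) and list medians (vertical bars) for 10 µM (left) and 50 µM IPA (right) against vehicle; the x axes differ in range. At 50 µM the medians are -0.55 for the 8 secondary granule genes, -0.95 for the primary granule list and 0.19 for the tertiary granule list.

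Transcription factors that act on granule genes were lower or did not pass. Of 11 such genes, 6 were lower at 50 µM than with vehicle, 0 were higher, and the median log2 fold change was -0.31. *Cebpe*, the gene of C/EBP epsilon, was at 109 ± 10.8 CPM with vehicle, 88.1 ± 2.52 CPM at 10 µM and 86.9 ± 4.29 CPM at 50 µM. Its log2 fold change was -0.30 at 10 µM (adjusted p = 0.150) and -0.31 at 50 µM (adjusted p = 0.0231), with groups that did not overlap. *Cebpd* (-0.53, adjusted p = 0.00202), *Ikzf1* (-0.49, adjusted p = 0.000479) and *Klf5* (-0.54, adjusted p = 0.00702) passed in all 8 fits that left out 1 library. *Cebpe* passed in 5 of the 8, *Stat3* (-0.34) in 5 and *Gfi1* (-0.53), which encodes a repressor needed for neutrophil maturation, in 4. The number of lower genes in the list was 3 without vehicle replicate 3, 4 without replicate 2 or 4 at 50 µM and 7 without vehicle replicate 4. The adjusted p of *Cebpe* was 0.0906 when vehicle replicate 3 was left out, and that of *Gfi1* 0.0687 when replicate 2 at 50 µM was left out. *Cebpa*, *Cebpb*, *Spi1*, *Runx1* and *Rara* did not pass in any comparison by edgeR's test with all libraries. *Runx1* (-0.22 at 50 µM against vehicle) passed as lower in 2 of the 8 alternatives that kept all libraries and in 1 of 8 fits with 1 library removed. *Cebpb* (-0.21 between the doses) passed as lower in 1 of 8 of each kind.

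Markers of other cells moved between the groups as well, and their part in the levels of the 8 genes was not tested. Of 8 mature neutrophil markers, 3 were lower at 50 µM than with vehicle (*Cxcr2* -0.79, *Csf3r* -0.36 and *Trem1* -0.32) and 0 were higher, and *Ly6g* stood at 0.24 (adjusted p = 0.406). With 1 library left out the number of lower markers was 2 (without replicate 1 or 2 at 50 µM or replicate 2 or 3 of vehicle) to 5 (without replicate 3 at 50 µM), and *Ly6g* passed as higher without vehicle replicate 4 (0.44). Their summed level lay between 11024 and 16657 CPM with vehicle, between 11078 and 12307 CPM at 10 µM and between 8639 and 12929.9 CPM at 50 µM. Of 5 monocyte markers, 4 were lower at 50 µM (median -0.74), with a summed level of 2636 to 2802 CPM at 10 µM and 1556 to 1863 CPM at 50 µM. Of 8 macrophage markers, 3 were higher at 10 µM, and 2 were higher and 1 lower at 50 µM, with summed levels of 1120 to 1250.4 CPM and 1040.1 to 1082 CPM. The 3 macrophage markers higher at 10 µM all passed with vehicle replicate 4 left out, and 0 or 1 passed with any other library left out. The same count at 50 µM was 1 higher and 2 lower of 6 eosinophil markers (851 to 1121 CPM), 1 higher and 0 lower of 5 mast cell or basophil markers (357 to 464 CPM), 2 higher and 0 lower of 6 dendritic cell markers (702 to 881 CPM) and 0 higher and 3 lower of 8 proliferation genes (1761 to 1916 CPM). Among the mast cell or basophil markers, *Mcpt8* also passed as lower without replicate 3 at 50 µM or vehicle replicate 1 or 2, and *Prss34* as higher without vehicle replicate 4. The number of macrophage markers higher at 50 µM was 1 without vehicle replicate 2 or 3 or any 1 library at 50 µM, and 3 without vehicle replicate 4. The dendritic cell count was 0 without vehicle replicate 3 or replicate 2 at 50 µM and 1 without replicate 1 of either group. The proliferation count was 5 without vehicle replicate 2 or replicate 3 at 50 µM. Its lowest value with 1 library left out was 2, and *Ccnb1* passed in 5 of 8 such fits. B cell markers were higher at 50 µM (4 of 5), at low summed levels of 15.7 to 22.7 CPM with vehicle and 32.1 to 51.7 CPM at 50 µM. T cell markers (2.15 to 5.63 CPM over all libraries) and erythroid markers (0.871 to 2.03 CPM) were close to 0, with 0 genes passing in any comparison, and *Hbb-bs* had 0 reads in the vehicle group. Of 10 genes of receptors and partners of the 8 proteins, 5 had enough reads to be tested. With all libraries, *Itgb2* was the only one of them past the threshold against vehicle. *Lrp1* (-0.71), which encodes a lactoferrin receptor, and *Pecam1* (-0.42), which encodes a binding partner of CD177, were lower at 50 µM than at 10 µM. At 50 µM against vehicle with 1 library removed, *Itgb2* passed as higher in 5 of 8 fits and *Lrp1* (-0.28) as lower in 1 of 8.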

How the data were processed

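RNA-seq counts of 12 libraries were used, 4 each with vehicle, 10 µM IPA and 50 µM IPA. The authors used Atropos for trimming, HISAT2 2.2.1 for alignment to mm10 and featureCounts 2.0.1 for counting on Ensembl genes, and the deposited values are raw counts, unfiltered and not normalized. The strand setting of the counting is not given in the sources used here. The submitters' processing notes also name R 4.3.0 and DESeq2 1.40.2. Groups and replicate numbers came from the labels. Replicate 3 at 10 µM carries the title of replicate 2 and was identified by its library name. The labels give a medium change with renewed IPA on day 3, and the methods a change every 2 days. No library was a copy of another. Counts cover 20451312 to 28038612 reads per library.

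Genes over 0.5 CPM in at least 2 of the 12 libraries (14894) were tested with edgeR 4.0.16 in R 4.3.3 (TMM, glmQLFit and glmQLFTest), each comparison on its 8 libraries, with adjustment over all 14894 genes and a threshold of 0.05. The scripts were tested on simulated data. Alternatives were DESeq2 1.42.0, limma-voom (limma 3.58.1), other normalizations and filters, all 12 libraries in the fit, a replicate block and leaving out each library in turn. Replicate numbers showed no clear pairing of the libraries: deviations from the group means of same-numbered libraries correlated between -0.63 and 0.34. With 4 libraries per group this cannot exclude a pairing, and the paper used repeated-measures tests for flow cytometry of such cultures. Exon lengths and positions came from GENCODE M21 (GRCm38) and promoters from RefSeq (GRCm38.p6), where all 8 genes were matched. The 8 genes and the gene lists were chosen with earlier results of these data known. The text names the 8 genes, from each list those that passed in a comparison or had the highest level, the 5 genes of most similar pattern, and single other genes chosen after their values were seen (*Ly6g*, *Fcna*, *Tmem219*, *Il13ra2*, *Hbb-bs*, *Nbeal2*, *Mcpt8*, *Fpr1*, *Mmp8* and transcription factors that did not pass). The log2 ratios were computed from CPM, and a reference without *Fcnb* was added after the data were seen.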

Additional observations from a re-analysis of the deposited data

How the results depend on the processing

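The 6 genes lower at 50 µM than with vehicle and the 4 lower at 50 µM than at 10 µM passed under all 16 alternatives of their comparison. At 10 µM against vehicle, 1 of the 8 genes (*Lcn2*) passed with DESeq2's Wald test and 1 (*Lcn2*) without a filter (adjusted p = 0.0282), and the adjusted p of *Lcn2* ranged from 0.00733 to 0.400. Between the doses *Ngp* also passed without a filter (5 genes) and with the replicate block (5 genes). The replicate block gave 0 of the 8 genes at 10 µM and 6 at 50 µM against vehicle. The replicate numbers mark no stated pairing. The estimate of *Fcnb* at 10 µM ranged from -0.035 (without replicate 1 of the vehicle group) to 0.20 with 1 library left out. Over all genes, the 61 that passed at 10 µM against vehicle became 250 with DESeq2, 150 without a filter, 118 with all 12 libraries in the fit, 3 with the replicate block and between 4 (replicate 2 at 10 µM left out) and 122 (vehicle replicate 4 left out) with 1 library left out. At 50 µM against vehicle, 2010 became between 1248 (vehicle replicate 3 left out) and 2689 (vehicle replicate 4 left out), with 1313 without replicate 2 at 50 µM. Relative to the other genes at 50 µM, leaving *Fcnb* out of their mean turned the differences of *Camp* (to -0.17) and *Ngp* (to -0.047), since *Fcnb* had lowered that mean. The other causes were not tested.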
